A study of Mus musculus with 8 samples.

Results

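The genes described here are the enzymes that remove peroxides, superoxide and reactive electrophiles with glutathione or thioredoxin, measured in the epididymal fat of mice on a high fat diet. They were chosen by symbol, not by level: glutathione S-transferases (Gst, Mgst), glutathione peroxidases (Gpx), peroxiredoxins (Prdx), superoxide dismutases (Sod) and thioredoxin reductases (Txnrd), with the peroxidases Gpx5 and Gpx6 left out. This gave 39 of the 16505 genes in the table. Of these, 36 had a mean log2 CPM over the 8 libraries of 0 or more and were tested. CPM scales a gene's reads to the total reads of its library. Gsto2, Gstt4 and Prdx6b lay under that limit, with means of −0.08, −1.90 and −2.37, and Gstp2 was the member just above it (0.33).

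Polyadenylated RNA came from 4 wild-type (WT) and 4 miR-181 double-knockout mice of the strain C57BL/6, and both groups had been fed a high fat diet for 12 weeks. The labels do not say which miR-181 genes were deleted, whether the deletion was limited to a cell type, or the age, litter or housing of the animals, so each p-value reflects only the spread among these 8 samples. The study's title names the microbiota, inflamed white fat and a microRNA family, and the comparison asks how gene expression in the fat depot differs when miR-181 is lacking.

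Glutathione S-transferases join the small peptide glutathione to reactive compounds such as the aldehydes that form when lipids are oxidized. Glutathione peroxidases and peroxiredoxins reduce hydrogen and lipid peroxides, the former with glutathione and the latter mostly with thioredoxin, which thioredoxin reductase recharges with NADPH. Superoxide dismutases make the hydrogen peroxide that these enzymes consume. Many of the genes are known targets of NRF2 (gene Nfe2l2), a transcription factor held down by KEAP1 that binds the antioxidant response element. In obese fat both adipocytes and macrophages produce oxidants and carry these defences.

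The mature miR-181 RNAs share a seed, the bases 2 to 8 that pair with target messages, shown in capitals in the RefSeq sequences (build GRCm38.p6). One form, miR-181a-5p, is encoded on the plus strand at chr1:137966468-137966490 and again at chr2:38852741-38852763, and miR-181b-5p on the plus strand at chr1:137966650-137966673 and chr2:38853845-38853868.
miR-181a-5p: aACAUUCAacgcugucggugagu
miR-181b-5p: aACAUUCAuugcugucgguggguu

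The match to this seed, TGAATGT, was looked for in the longest annotated 3′ UTR of each member in GENCODE release M21. It was present in 2 of 39 members (5.13%), against 19.3% of the 12867 tested genes with an annotated UTR. Member UTRs were also shorter, with a median of 557 bases against 1365. The members with a match were Sod2, with 2 sites, and Gpx8, with 1, and neither passed the threshold between the groups. The first site of each is printed with its neighbouring bases and the match in capitals. A match is a description of the letters only.
Sod2: aacagtgtgctgtaTGAATGTgttcaag
Gpx8: aataaaatatacaaTGAATGTtgcaaaa

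Several libraries stood apart. Totals ran from 3736881 to 76838584 reads, and the deepest was knockout replicate 2. Ribosomal RNA exceeded 1% of reads in WT replicates 1, 3 and 4 and knockout replicate 1 (3.08% to 11.5%) and was at most 0.334% in the other 4. Reads of epididymis markers were frequent in WT replicate 2 (1.60%) and in knockout replicates 2 and 4 (2.79% and 1.32%), and made up at most 0.00865% elsewhere. Red blood cell markers reached 0.407% and 1.2% in knockout replicates 3 and 4. Adipocyte markers, all 15 of which were detected in both groups, summed to 0.994% to 1.75% of reads in WT and 2.56% to 4.32% in the knockout. The sum of 15 pan-macrophage markers was 0.886% to 1.04% in WT and 0.207% to 0.263% in the knockout, with none at 0 in either group. In bulk tissue, fewer cells of a type and less RNA per cell cannot be told apart. Other marker sums that did not overlap were lower in the knockout for lipid-associated macrophages (2.02% to 2.49% in WT, 0.662% to 1.30% in the knockout), fibroblasts (0.465% to 0.592% and 0.279% to 0.329%) and mast cells (0.0173% to 0.0409% and 0.00371% to 0.00769%). They were higher for endothelial cells (0.0363% to 0.0496% and 0.074% to 0.0933%), mesothelial cells (0.00662% to 0.00959% and 0.0141% to 0.0320%) and smooth muscle (0.0186% to 0.0301% and 0.0412% to 0.288%). The very small sum of 7 T cell markers was higher too (0.000681% to 0.00121% in WT, 0.00126% to 0.00201% in the knockout). The part of these cell types in the results below was not tested.

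Many detoxification enzymes were higher in the knockout, while Prdx1, the member with the highest mean level, and Txnrd1 were lower. At an adjusted p under 0.05 in limma, 21 of the 36 tested members (58.3%) rose, where 22.7% of all 13797 tested genes did, and 2 (5.56%) fell, where 16.1% of all genes did. Changes of at least 2-fold were found for 16 higher members, against 10.4% of all genes, and for 1 lower member, against 8.56% of all genes. The groups did not overlap in 18 members (50%), against 37.4% of all genes. Each change given below is the knockout mean minus the WT mean on the log2 scale, ± SE. The median change was 1.03 over the tested members and 0.18 over all tested genes, so the members' median was 0.86 above it. Over all genes 3137 rose and 2216 fell, and with each library centred on its median 2444 rose and 2825 fell. The members then numbered 18 higher and 4 lower. Of the 23 called members, 15 kept their call under each of the 23 alternative settings tried, namely Gsta3, Gsta4, Gstk1, Gstm1, Gstm4, Gstp1, Gstt1, Gstt2, Gstz1, Mgst1, Mgst3, Prdx1, Prdx6, Sod1 and Txnrd1.

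**Figure D1:**
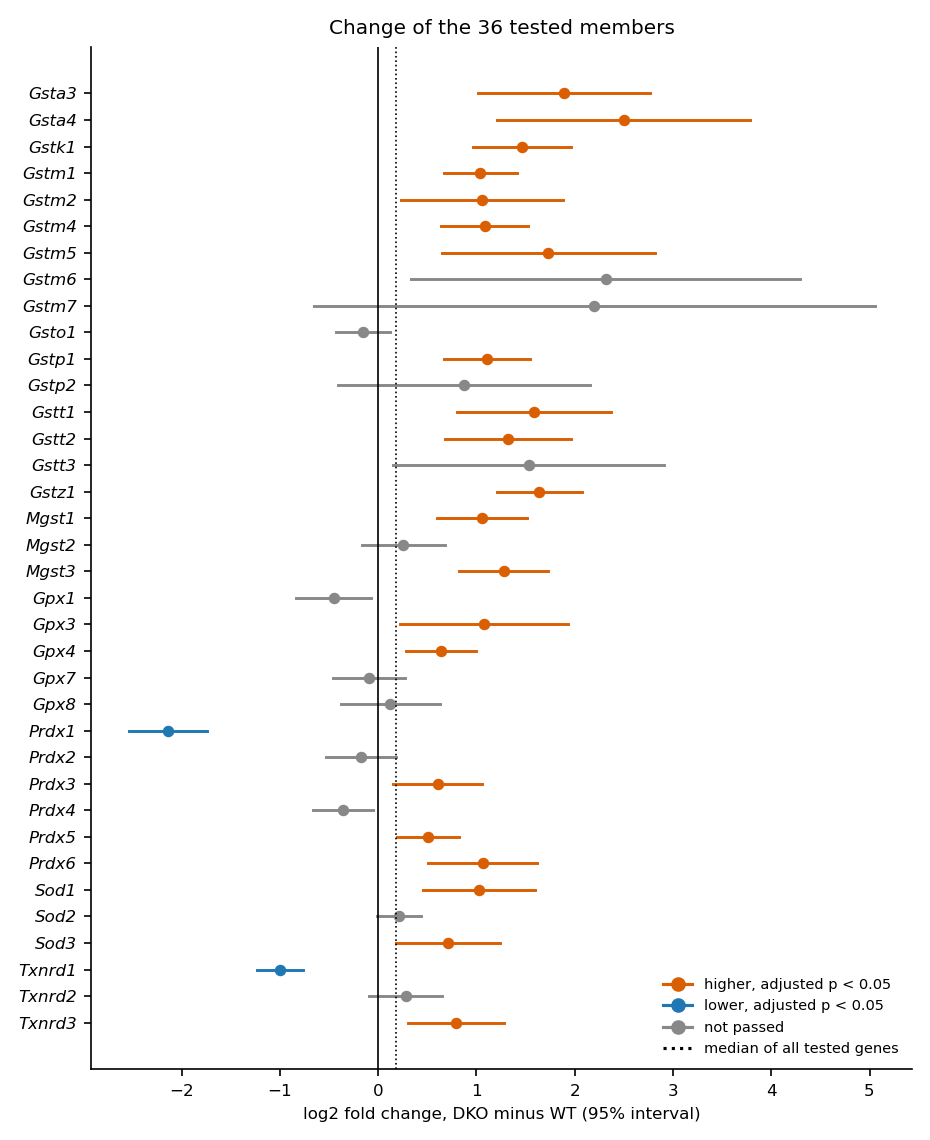
Log2 fold change (x axis, knockout minus WT) of each of the 36 tested members (y axis), with 95% intervals from limma (lines) and a dotted line at the median of all tested genes, 0.18. The 21 members that rose are orange, the 2 that fell, Prdx1 and Txnrd1, are blue, and the 13 that did not pass are grey, with the widest interval for Gstm7.

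Ribosomal RNA class and group were partly aligned, since one class held 3 WT and 1 knockout library and the other 1 WT and 3 knockout libraries. The class with more ribosomal RNA also held the shallower libraries (3736881 to 6790005 reads), and the other class the deeper ones (15410736 to 76838584 reads). Adjusting for this class therefore cannot be told apart from adjusting for depth. All libraries with over 1% epididymis reads were in the class with less ribosomal RNA. The median difference of the tested members was 0.68 within the class with more ribosomal RNA and 0.55 within the class with less, against 1.03 over all libraries. In each of these classes 1 library stands for a whole group, so no error can be given for those medians. In the 5 libraries with under 1% epididymis reads, 3 of WT and 2 of the knockout, the median was 0.91.

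Glutathione transferases of the alpha class had the largest called rises. Gsta4, known for its activity on 4-hydroxynonenal, an aldehyde from oxidized lipid, stood at 0.43, 2.59, 1.96 and 1.49 log2 CPM in WT replicates 1 to 4 and at 2.98, 3.57, 4.96 and 4.96 in the knockout. The highest WT library thus lay below the lowest knockout library, and the change was 2.50 ± 0.57 (adjusted p = 0.00816), a 5.65-fold rise. Gsta3, of the same class, measured 4.27, 5.12, 4.64 and 4.61 in WT and 5.93, 5.81, 6.82 and 7.65 in the knockout. It rose by 1.89 ± 0.39 (adjusted p = 0.0048) with no overlap. For both genes knockout replicates 3 and 4 were the highest, the libraries that also held the most red blood cell reads. Whether the 2 are linked was not tested.

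The mu class genes lie next to each other on the chromosome in the RefSeq annotation, with 6 of the 7 neighbours among the members. Of the 6, 4 rose and 2 did not pass. Gstm1, a conjugating enzyme with broad substrates, stood at 7.76, 8.43, 8.20 and 8.28 in WT and at 9.35, 9.16, 8.97 and 9.34 in the knockout, a change of 1.04 ± 0.16 (adjusted p = 0.00127). Gstm4 measured 3.54, 4.48, 3.94 and 3.96 in WT and 5.17, 5.25, 4.86 and 4.99 in the knockout (1.08 ± 0.20, adjusted p = 0.00267). Neither gene overlapped between the groups, and the 4 knockout values of each lay within 0.5 log2 CPM of each other. Gstm2 rose by 1.06 ± 0.36 (adjusted p = 0.0458) and Gstm5 by 1.73 ± 0.48 (adjusted p = 0.0195), both with overlapping groups. The Gstm2 call ended without WT replicate 1, 3 or 4 or knockout replicate 2 or 4 (changes from 0.84 to 1.04, adjusted p from 0.0963 to 0.122). Adjusting for the class of ribosomal RNA gave Gstm2 a change of 0.61 (adjusted p = 0.164), and Gstm5 lost its call without knockout replicate 3 (1.47, adjusted p = 0.0555) and with epididymis level and ribosomal RNA class both as covariates (1.01, adjusted p = 0.0628). Coding sequences of the mu class are alike, so reads could be divided between its genes and each single value is uncertain for that reason.

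Gstm6 and Gstm7 varied most of all members within WT, with SDs of 1.93 and 2.41. Gstm7 stood at 3.60, 7.06, 3.06 and 1.30 in WT and at 3.36, 8.09, 6.10 and 6.27 in the knockout. Its high WT library, replicate 2, and its highest knockout library, replicate 2, were the 2 libraries with the most epididymis reads. Knockout replicate 3, with few epididymis reads, stood at 6.10. The part of epididymis RNA in these levels was not tested. Gstm6 had the same high WT library, at 1.61, 5.18, 1.79 and 0.84 in WT against 3.67, 5.84, 4.39 and 4.78 in the knockout. Over all libraries the Gstm6 difference was 2.31 ± 0.87 (adjusted p = 0.0631) and that of Gstm7 was 2.2 ± 1.26 (adjusted p = 0.193). Without WT replicate 2 both passed, at 3.25 (adjusted p = 0.00158) and 3.30 (adjusted p = 0.0305). In the 5 libraries with few epididymis reads Gstm6 passed (2.62, adjusted p = 0.00152) and Gstm7 did not (2.08, adjusted p = 0.0826). Adjusted for epididymis markers, Gstm6 again passed (1.56, adjusted p = 0.0221) and Gstm7 did not (1.12, adjusted p = 0.201). Within the class with less ribosomal RNA, which holds WT replicate 2, the differences were −0.18 and −0.24.

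**Figure D2:**
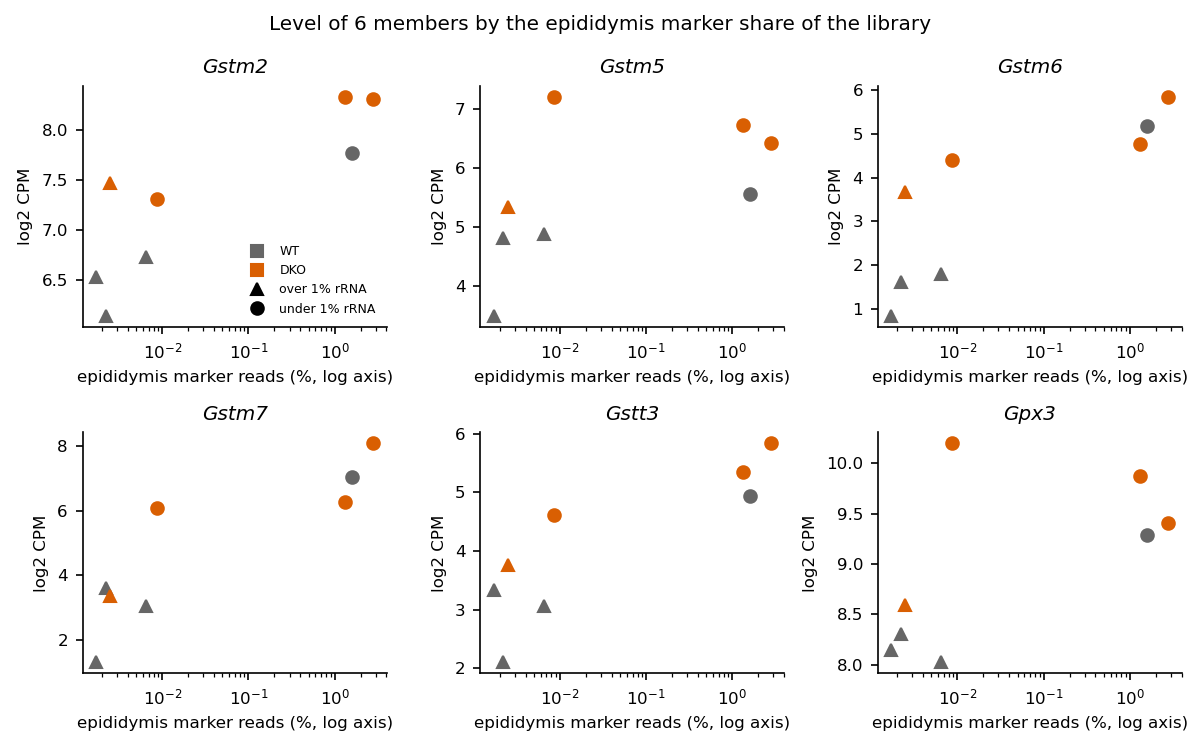
Log2 CPM of Gstm2, Gstm5, Gstm6, Gstm7, Gstt3 and Gpx3 (y axes) in each library against the percent of its reads from 22 epididymis markers (x axis, log scale), WT grey and knockout orange, triangles for libraries with over 1% ribosomal RNA. WT replicate 2, the grey circle at 1.60%, is the highest WT library in all 6 panels.

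The theta class genes also neighbour each other, and 2 of the 3 tested rose. Gstt1, which conjugates small halogenated compounds, stood at 4.56, 4.41, 4.38 and 4.14 in WT and 5.43, 5.10, 6.68 and 6.62 in the knockout (1.58 ± 0.35, adjusted p = 0.00687). Gstt2 measured 3.54, 4.25, 4.0 and 3.54 in WT and 4.71, 4.65, 5.62 and 5.65 in the knockout (1.32 ± 0.28, adjusted p = 0.00608). Both were highest in knockout replicates 3 and 4, and neither overlapped. Gstt3 ran from 2.10 to 4.93 in WT and from 3.76 to 5.83 in the knockout, a difference of 1.53 ± 0.61 that did not pass (adjusted p = 0.0753). It passed without WT replicate 2 (2.05, adjusted p = 0.0127) and without knockout replicate 1 (1.91, adjusted p = 0.0335). It also passed in the 5 libraries with few epididymis reads (1.36, adjusted p = 0.0348) and after adjusting for epididymis markers (0.99, adjusted p = 0.0253). It did not pass after adjusting for the class of ribosomal RNA (0.63, adjusted p = 0.251) or with voom and median-ratio size factors (1.08, adjusted p = 0.161). The Gstt3 difference was 0.92 within the class with more ribosomal RNA and 0.33 within the class with less. Gstt4 had 7 reads over the WT and 86 over the knockout libraries and was not tested.

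Single transferases of other classes had tight rises. Gstz1, which isomerizes maleylacetoacetate in tyrosine breakdown, stood at 7.41, 7.28, 8.02 and 7.18 in WT and at 9.15, 8.83, 9.27 and 9.21 in the knockout. Its change of 1.64 ± 0.19 (adjusted p = 0.000292) had the smallest adjusted p of the higher members and equals a 3.12-fold rise. Gstk1, a transferase of mitochondria and peroxisomes, measured 3.38, 4.36, 3.90 and 3.67 in WT and 4.96, 5.21, 5.41 and 5.58 in the knockout (1.47 ± 0.22, adjusted p = 0.00102). Gstp1, of the pi class, measured 3.84, 4.24, 3.44 and 4.01 in WT and 4.73, 4.92, 4.98 and 5.30 in the knockout (1.10 ± 0.19, adjusted p = 0.00226). None of the 3 overlapped. Its near-identical neighbour Gstp2 rested on 34 WT and 275 knockout reads and did not pass (0.87 ± 0.57, adjusted p = 0.246), and reads of the pair could be divided between them.

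Of the omega class, 1 gene was tested and it did not pass. Gsto1, which reduces dehydroascorbate and arsenic compounds, ranged from 6.01 to 6.27 in WT and from 5.80 to 6.25 in the knockout. Its difference of −0.16 ± 0.12 (adjusted p = 0.326) had a 95% interval of −0.43 to 0.12, which leaves out a rise of the size seen for Gstz1 or Gstm1. The neighbouring Gsto2 had 24 WT and 251 knockout reads and lay under the limit on low values. With no such limit its difference was 1.65 (adjusted p = 0.162).

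Microsomal transferases are membrane enzymes of another fold, and 2 of 3 rose. Mgst1, an abundant enzyme of the endoplasmic reticulum and outer mitochondrial membrane, stood at 8.18, 8.58, 8.95 and 8.41 in WT and 9.45, 9.24, 9.71 and 9.94 in the knockout (1.05 ± 0.20, adjusted p = 0.00368). Mgst3 measured 5.87, 6.25, 6.45 and 5.96 in WT and 7.41, 6.89, 7.69 and 7.65 in the knockout (1.28 ± 0.20, adjusted p = 0.00125). Every knockout library exceeded every WT library for both genes. Mgst2 was at 3.07 ± 0.10 in WT and 3.32 ± 0.30 in the knockout (SD, n = 4), a difference of 0.26 ± 0.19 (adjusted p = 0.3).

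**Figure D3:**
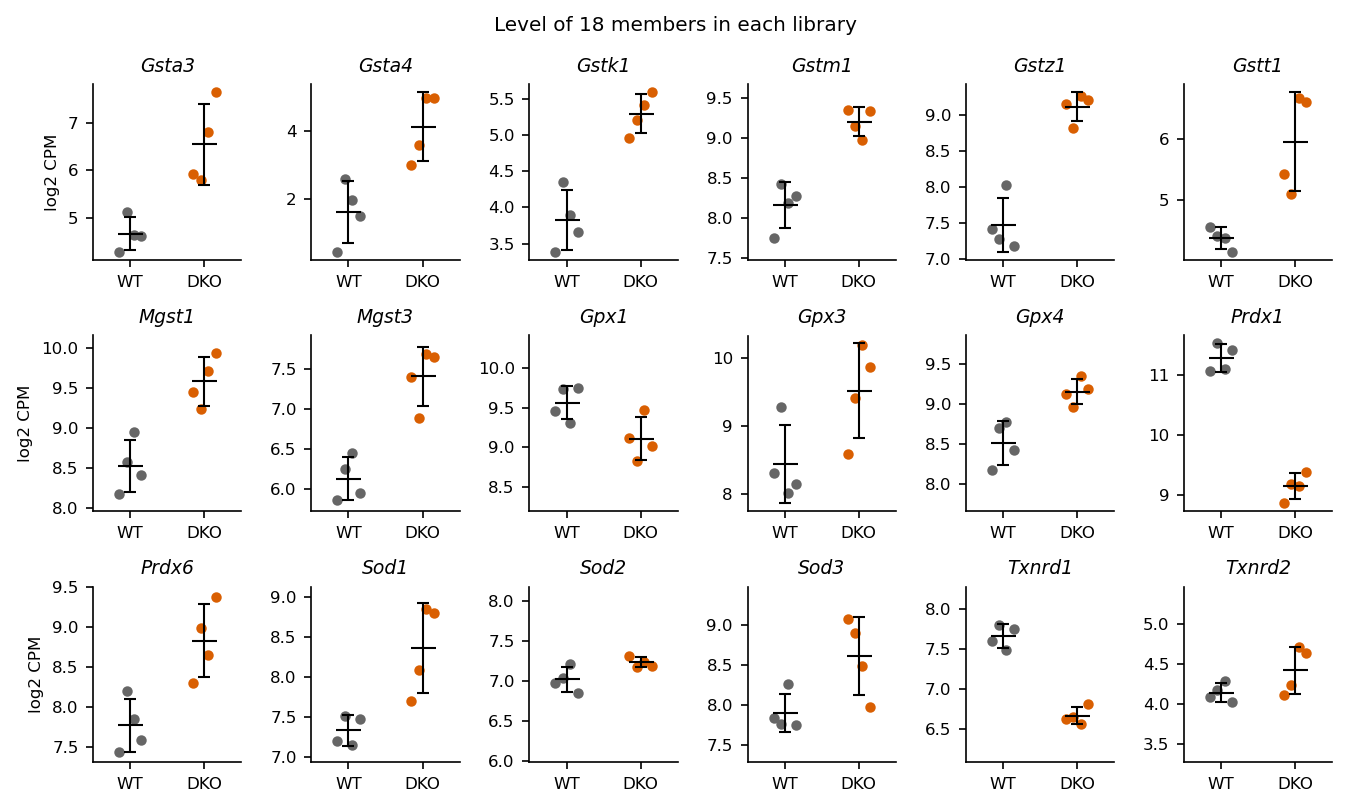
Log2 CPM (y axes) of 18 members in each library (points), with bars for the mean and SD of each group, 4 libraries of WT in grey beside 4 of the knockout in orange. Prdx1 and Txnrd1 lie lower in all 4 knockout libraries, the transferases Gsta3, Gsta4, Gstk1, Gstm1, Gstz1, Gstt1, Mgst1 and Mgst3 higher, and Gpx1, Gpx3, Sod2, Sod3 and Txnrd2 overlap.

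Glutathione peroxidases split by gene. Gpx4, the selenoenzyme that reduces phospholipid peroxides and guards against ferroptosis, stood at 8.17, 8.70, 8.78 and 8.43 in WT and at 9.13, 8.97, 9.35 and 9.19 in the knockout. It rose by 0.64 ± 0.16 (adjusted p = 0.0116) with no overlap, and the call ended with epididymis level and ribosomal RNA class both as covariates (0.55, adjusted p = 0.0628). Gpx3, the secreted peroxidase of plasma, which fat also makes, measured 8.30, 9.28, 8.02 and 8.14 in WT and 8.59, 9.41, 10.19 and 9.87 in the knockout. Its rise of 1.08 ± 0.38 lay just inside the threshold (adjusted p = 0.049), and the groups overlapped because WT replicate 2 was above knockout replicate 1. The Gpx3 call ended without WT replicate 1, 3 or 4 or knockout replicate 2, 3 or 4 (changes from 0.85 to 1.11, adjusted p from 0.0714 to 0.125). Adjusting for the class of ribosomal RNA gave a change of 0.49 (adjusted p = 0.0956), and the differences inside the classes were 0.43 and 0.54. The value with both covariates was 0.39 (adjusted p = 0.0937).

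Gpx1, the main cytosolic peroxidase, leaned the other way. It stood at 9.46, 9.73, 9.31 and 9.74 in WT and at 9.12, 8.83, 9.47 and 9.02 in the knockout, where replicate 3 reached the WT range. The difference of −0.46 ± 0.17 did not pass (adjusted p = 0.0611), and it passed without knockout replicate 3 (−0.57, adjusted p = 0.0289) and with each library centred on its median (−0.60, adjusted p = 0.0331). In the 5 libraries with few epididymis reads it was −0.21 (adjusted p = 0.525). With the replicate number as a block its adjusted p was 0.112. Gpx7 and Gpx8, peroxidases of the endoplasmic reticulum that act in protein folding, differed little. Gpx7 measured 4.11, 4.40, 4.36 and 4.44 in WT and 4.43, 4.34, 4.34 and 3.83 in the knockout (−0.09 ± 0.16, adjusted p = 0.667). Gpx8 measured 4.52, 5.44, 4.89 and 5.0 in WT and 4.60, 5.28, 5.17 and 5.30 in the knockout (0.12 ± 0.22, adjusted p = 0.682), and its sign turned with median centring (−0.02).

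Peroxiredoxins held the largest fall. Prdx1, the abundant cytosolic peroxiredoxin, stood at 11.08, 11.53, 11.11 and 11.43 in WT and at 8.86, 9.18, 9.16 and 9.39 in the knockout. The lowest WT library lay well above the highest knockout library, and the change of −2.14 ± 0.18 (adjusted p = 5.27e-05) corresponds to a 4.41-fold lower level. Within the classes of ribosomal RNA it was −2.35 and −2.29, and in the libraries with few epididymis reads −2.2. Prdx1 made up 33.3% to 40.2% of all reads of the 39 members in the WT libraries and 6.88% to 8.05% in the knockout libraries. The other 38 members together took 0.367% to 0.524% of library reads in WT and 0.604% to 0.805% in the knockout. The marker sums of both macrophage lists, fibroblasts and mast cells separated the groups in the direction of Prdx1. Those of adipocytes, endothelial cells, mesothelial cells, smooth muscle and T cells did so in the direction of the transferases that rose, and their part was not tested. Single marker genes were less uniform than these sums. Of 15 pan-macrophage genes 13 fell and 1 rose, while of 9 fibroblast genes 3 fell, 1 rose and 5 did not pass. Of 15 adipocyte genes 12 rose and 3 did not pass, while of 6 smooth muscle genes 3 rose and 3 did not pass. None of the 7 T cell genes passed. Over all tested genes 22.7% rose and 16.1% fell.

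Prdx6, a peroxiredoxin with phospholipase activity that uses glutathione, moved the other way. It measured 7.44, 8.20, 7.85 and 7.59 in WT and 8.31, 8.99, 8.65 and 9.38 in the knockout (1.06 ± 0.25, adjusted p = 0.00869), without overlap. Its paralog Prdx6b held 8 WT and 162 knockout reads and was not tested, and reads of the pair could be divided between them. The mitochondrial Prdx3 and Prdx5, the latter also found in other compartments, rose by 0.61 ± 0.20 (adjusted p = 0.0393) and 0.51 ± 0.14 (adjusted p = 0.0186). Prdx3 lost its call without WT replicate 1, 3 or 4 or knockout replicate 3 or 4 (changes from 0.44 to 0.64, adjusted p from 0.0671 to 0.105). Adjusted for the class of ribosomal RNA, its change was 0.40 (adjusted p = 0.148), with both covariates 0.38 (adjusted p = 0.191), and in the 5 libraries with few epididymis reads 0.54 (adjusted p = 0.074). The Prdx5 call ended without WT replicate 4 (0.49, adjusted p = 0.0553), in the 5 libraries with few epididymis reads (0.42, adjusted p = 0.127) and after adjusting for ribosomal RNA (0.42, adjusted p = 0.0703).

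Prdx2, the major peroxiredoxin of red blood cells, measured 7.52 ± 0.17 in WT and 7.35 ± 0.29 in the knockout (SD, n = 4) and did not pass (−0.17 ± 0.16, adjusted p = 0.405). Its highest knockout library, replicate 4 at 7.73, was the one with the most red blood cell reads. WT replicate 2 also stood at 7.73, with the fewest such reads (0.0277%), and knockout replicate 3, with 0.407%, at 7.31. The part of red blood cells in these levels was not tested. Prdx4, of the secretory pathway, measured 5.51 ± 0.23 and 5.15 ± 0.15 (−0.36 ± 0.14, adjusted p = 0.0656). This difference passed without WT replicate 1 (−0.45, adjusted p = 0.0389), with median centring (−0.50, adjusted p = 0.00423) and with quantile normalization (−0.44, adjusted p = 0.00977). It did not pass in the 5 libraries with few epididymis reads (−0.32, adjusted p = 0.222) or with the replicate number as a block (adjusted p = 0.0616).

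Of the 3 superoxide dismutases, Sod1 and Sod3 rose and Sod2 did not pass. Sod1, the copper-zinc enzyme of the cytosol, stood at 7.20, 7.52, 7.15 and 7.48 in WT and at 7.71, 8.09, 8.85 and 8.81 in the knockout, a rise of 1.03 ± 0.25 (adjusted p = 0.0116) with no overlap. The Sod1 difference was 0.43 within the class with more ribosomal RNA and 1.07 within the class with less. Sod3, the extracellular enzyme, measured 7.84, 7.76, 8.25 and 7.74 in WT and 9.07, 8.90, 8.49 and 7.97 in the knockout. Knockout replicate 4 fell inside the WT range, and the rise of 0.71 ± 0.24 (adjusted p = 0.0405) ended as a call without WT replicate 1, 2 or 4 or knockout replicate 1, 2 or 3 (changes from 0.56 to 0.75, adjusted p from 0.0677 to 0.106). It also ended with median centring (0.57, adjusted p = 0.131). Sod2, the manganese enzyme of mitochondria, measured 6.98, 7.04, 7.22 and 6.85 in WT and 7.32, 7.18, 7.24 and 7.20 in the knockout. Its difference of 0.21 ± 0.10 did not pass (adjusted p = 0.119) and had a 95% interval of −0.01 to 0.44.

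Thioredoxin reductases are selenoenzymes, and each of the 3 behaved differently against the threshold. Txnrd1, the cytosolic reductase that supplies thioredoxin 1, stood at 7.59, 7.80, 7.48 and 7.75 in WT and at 6.62, 6.65, 6.56 and 6.81 in the knockout. The change of −1.0 ± 0.10 (adjusted p = 0.000167) was close to 2-fold, both groups were tight, and within the classes it was −0.99 and −1.13. Txnrd2, of mitochondria, measured 4.09, 4.18, 4.29 and 4.02 in WT and 4.11, 4.24, 4.71 and 4.64 in the knockout (0.28 ± 0.16, adjusted p = 0.201). Txnrd3, best known from testis, measured 3.16, 3.93, 3.70 and 3.67 in WT and 3.99, 4.35, 4.77 and 4.53 in the knockout (0.79 ± 0.22, adjusted p = 0.0178). Its call ended without knockout replicate 3 (0.68, adjusted p = 0.0536), in the 5 libraries with few epididymis reads (0.87, adjusted p = 0.0553) and after adjusting for ribosomal RNA (0.55, adjusted p = 0.0569), and with both covariates the change was 0.50 (adjusted p = 0.0854).

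Both members that fell, and the alpha transferase Gsta3 that rose, carry the core letters of the antioxidant response element in RefSeq promoter windows. The members as a whole held these letters at a share near that of all tested genes (20.6% against 17.0%). The motif searched was TGACNNNGC on both strands, in windows from 250 bases before to 50 bases after each annotated gene start (GRCm38.p6). A form with G in place of the C after TGA was not searched, so the counts below hold for the narrower form only. The windows of Gstp1 and Gstp2, for example, hold TGAGTCAGC and were counted as without the motif. A window was given for 34 members and not for Gsta4, Gstt2, Prdx6, Prdx6b and Sod3. The motif was present in 7 of the 34 (20.6%), namely Gsta3, Gstm5, Gstm7, Mgst1, Prdx1, Sod1 and Txnrd1, against 17.0% of the 10396 tested genes with a window. Counted by window, 7 of the 48 member windows held it, against 12.4% of all 32851 windows. By direction, the members with the motif were 4 of 17 higher, 2 of 2 lower and 1 of 13 that did not pass. Txnrd1 has several windows and 1 of them holds the motif.

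The 3 windows are those of both lower members and of Gsta3, chosen from the 4 higher members with the motif. Whether any of these sites is used was not tested. Capitals mark the match, which reads on the minus strand in Prdx1 and Txnrd1. It begins 133 bases before the start in Prdx1 (chr4:116685349-116685648, plus strand), 92 before it in Txnrd1 (chr10:82858956-82859255, plus strand) and 121 before it in Gsta3 (chr1:21240335-21240634, plus strand). In Prdx1 the match also contains an AP-1 heptamer, TGAGTCA.
Prdx1: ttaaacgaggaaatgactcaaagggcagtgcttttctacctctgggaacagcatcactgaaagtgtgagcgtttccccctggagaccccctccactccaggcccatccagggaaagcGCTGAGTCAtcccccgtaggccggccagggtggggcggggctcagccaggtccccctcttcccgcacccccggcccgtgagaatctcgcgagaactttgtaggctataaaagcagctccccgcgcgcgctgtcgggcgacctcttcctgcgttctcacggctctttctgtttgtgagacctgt
Txnrd1: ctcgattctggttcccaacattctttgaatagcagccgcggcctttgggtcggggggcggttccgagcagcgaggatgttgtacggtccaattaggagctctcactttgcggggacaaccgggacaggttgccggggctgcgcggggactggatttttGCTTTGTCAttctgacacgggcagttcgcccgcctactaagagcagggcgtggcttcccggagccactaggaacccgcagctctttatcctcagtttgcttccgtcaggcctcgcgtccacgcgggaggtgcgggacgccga
Gsta3: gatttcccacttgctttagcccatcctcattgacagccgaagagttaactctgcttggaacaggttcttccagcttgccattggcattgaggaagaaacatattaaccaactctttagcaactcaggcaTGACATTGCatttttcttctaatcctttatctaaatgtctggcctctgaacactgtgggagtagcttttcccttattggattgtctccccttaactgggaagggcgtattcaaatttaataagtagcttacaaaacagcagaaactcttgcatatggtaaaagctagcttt

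The counts of the next 6 lists stand against 22.7% of all tested genes higher and 16.1% lower. Of 14 genes that make, take up or recycle glutathione, 1 rose, 2 fell and 11 did not pass (median 0.23, 0.05 above that of all genes). Gclm, the modifier subunit of the rate-limiting enzyme of glutathione synthesis, stood at 6.15, 6.85, 6.18 and 6.52 in WT and at 4.87, 5.49, 4.80 and 5.61 in the knockout (−1.23 ± 0.23, adjusted p = 0.00301). Its catalytic partner Gclc did not pass (−0.35 ± 0.16, adjusted p = 0.113), though it did with median centring (−0.49, adjusted p = 0.00975). Gsr, which recycles oxidized glutathione, fell by 0.68 on the log2 scale (SE 0.17, adjusted p = 0.0119). That call ended in the 5 libraries with few epididymis reads (−0.55, adjusted p = 0.0649). Oplah, which returns 5-oxoproline to glutamate, rose by 1.31 ± 0.27 (adjusted p = 0.00503). The number that rose was 3 without WT replicate 2 and 2 without knockout replicate 1.

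On the thioredoxin side 4 of 12 genes rose and 4 fell (median 0.36, 0.18 above all genes). Srxn1, the sulfiredoxin that repairs overoxidized peroxiredoxins, stood at 7.54, 7.91, 7.48 and 7.94 in WT and at 5.46, 5.70, 5.12 and 5.46 in the knockout, a change of −2.28 ± 0.16 (adjusted p = 2.65e-05). Txn1, the cytosolic thioredoxin, changed by −0.95 ± 0.16 (adjusted p = 0.00177), and Sesn1, a sestrin, by −0.91 ± 0.10 (adjusted p = 0.000199). Glrx, a cytosolic glutaredoxin, and Glrx3, both picked out after their values were seen, went in opposite directions (−0.77, adjusted p = 0.0375, and 0.49, adjusted p = 0.0234). Glrx5, the mitochondrial glutaredoxin of iron-sulfur cluster assembly, rose by 0.84 ± 0.15 (adjusted p = 0.00282). The count of genes that rose in this list was 1 without WT replicate 1, 1 without WT replicate 4 and 2 in the 5 libraries with few epididymis reads.

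Among NRF2 regulators and its other targets, 1 of 12 rose and 5 fell (median −0.19, −0.37 relative to all genes). Nfe2l2 stood at 7.22, 7.27, 7.42 and 7.41 in WT and at 6.72, 6.56, 6.54 and 6.85 in the knockout (−0.66 ± 0.10, adjusted p = 0.00117), and Keap1 did not pass (0.15 ± 0.12, adjusted p = 0.359). Bach1, a repressor at the same element, changed by −0.99 ± 0.10 (adjusted p = 0.000123). The targets Hmox1, a heme oxygenase, and Cbr3, a carbonyl reductase, changed by −3.07 ± 0.27 (adjusted p = 6.86e-05) and −1.12 ± 0.23 (adjusted p = 0.00559). Nqo1, a quinone reductase often used as an NRF2 readout and picked out after its value was seen, did not pass (−0.16 ± 0.38, adjusted p = 0.749). The gene that rose, Nfe2l1, a relative of NRF2 likewise picked out afterwards, changed by 0.51 ± 0.16 (adjusted p = 0.0351). No gene of the list rose without WT replicate 1, 2 or 4 or knockout replicate 1, 2 or 3 (0 in each, against 1 over all libraries).

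**Figure D4:**
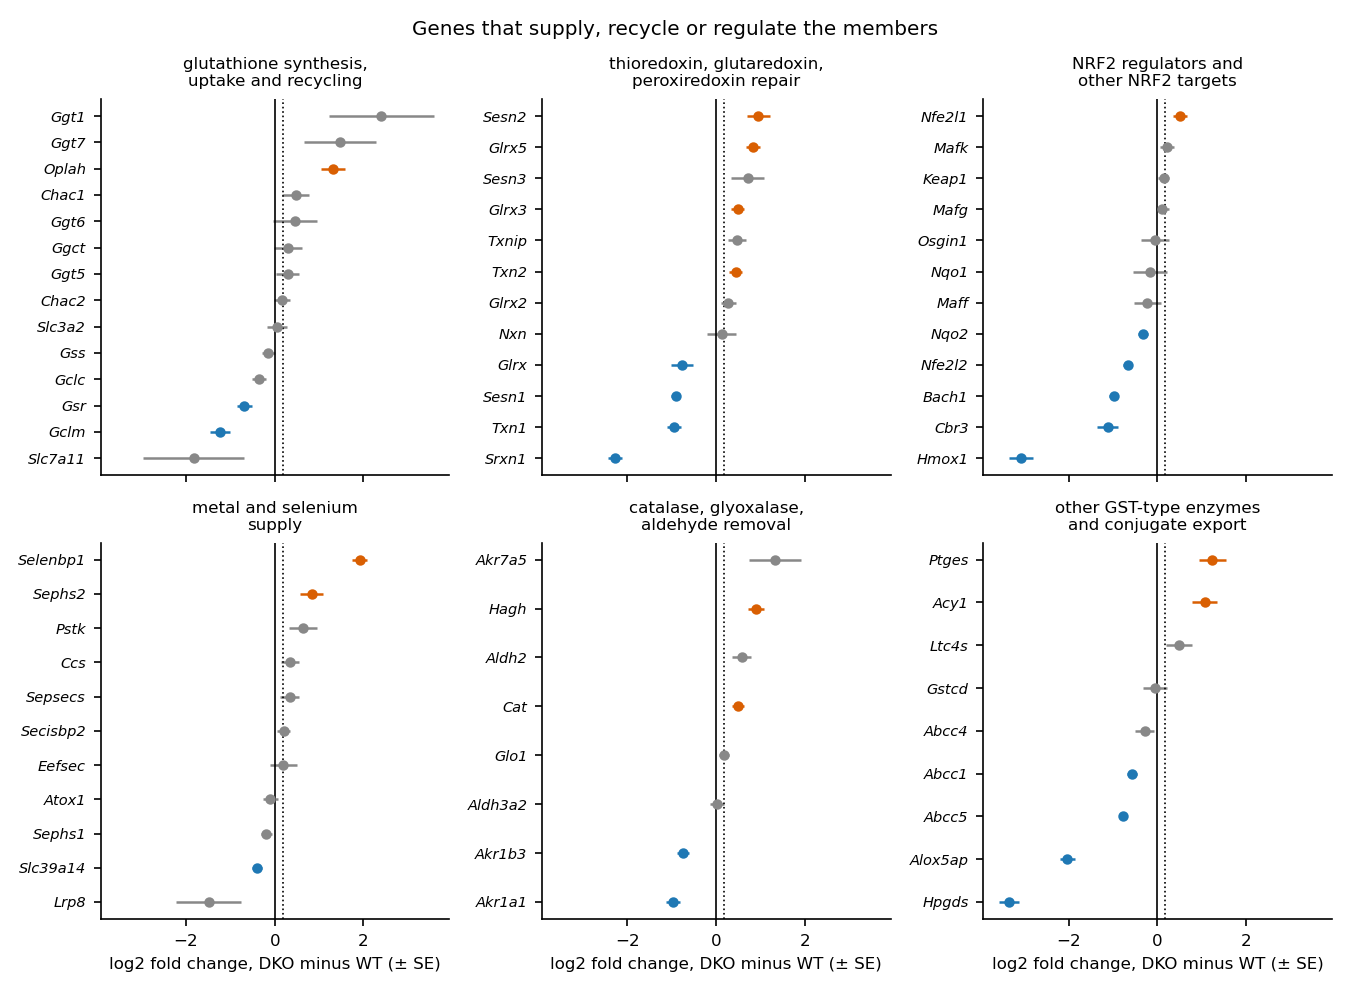
Log2 fold change (x axis, knockout minus WT, ± SE) of the tested genes (y axes) in 6 lists that supply, recycle or regulate the members, orange for higher, blue for lower and grey for not passed, with a dotted line at the median of all tested genes. Hmox1, Srxn1 and Hpgds lie farthest to the left among the called genes, and Selenbp1 farthest to the right.

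Metal and selenium supply showed 2 of 11 higher and 1 lower (median 0.20, 0.02 above all genes). Selenbp1, a selenium-binding methanethiol oxidase of mature adipocytes, rose by 1.91 ± 0.17 (adjusted p = 7.83e-05). Sephs2, which makes the selenium donor for selenoproteins such as Gpx4 and Txnrd1, rose by 0.83 ± 0.26 (adjusted p = 0.0299), and its call ended without WT replicate 1, 3 or 4 or knockout replicate 3 or 4 (changes from 0.67 to 0.84, adjusted p from 0.0617 to 0.0838). Slc39a14, a zinc, iron and manganese importer, fell by 0.39 on the log2 scale (SE 0.11, adjusted p = 0.024). That call ended without WT replicate 2, 3 or 4 or knockout replicate 3 or 4 (changes from −0.39 to −0.35, adjusted p from 0.0544 to 0.071) and with the replicate number as a block (adjusted p = 0.0581). Lrp8, a selenoprotein P receptor, differed by −1.49 ± 0.73 (adjusted p = 0.133) and passed without knockout replicate 2 (−2.22, adjusted p = 0.00826), which made 2 lower genes in the list. Without knockout replicate 1, 4 genes of this list were higher.

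Of 8 catalase, glyoxalase and aldehyde-removing enzymes 2 were higher, 2 were lower and 4 did not pass (median 0.33, 0.16 above all genes). Cat, the peroxisomal catalase, rose by 0.49 ± 0.13 (adjusted p = 0.0185), and the call ended without WT replicate 1 or 2 or knockout replicate 3 (changes from 0.44 to 0.46, adjusted p from 0.0529 to 0.055) and with median centring (0.35, adjusted p = 0.145). Hagh, the glyoxalase that follows Glo1, rose by 0.91 ± 0.18 (adjusted p = 0.00396). The aldehyde and aldose reductases Akr1a1 and Akr1b3 changed by −0.97 ± 0.16 (adjusted p = 0.00159) and −0.75 ± 0.14 (adjusted p = 0.00255). Without knockout replicate 1, 4 of the 8 rose, and without WT replicate 1 or knockout replicate 3, 1 did.

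Other enzymes of transferase type and exporters of glutathione conjugates had 2 of 9 higher and 4 lower (median −0.29, −0.46 relative to all genes). Hpgds, the sigma class transferase that makes prostaglandin D2 in immune cells, stood at 7.56, 7.39, 7.55 and 7.76 in WT and at 4.90, 3.94, 4.25 and 3.80 in the knockout, a change of −3.35 ± 0.22 (adjusted p = 2.17e-05) opposite to that of the alpha, mu and theta members. Alox5ap, a relative of the microsomal transferases in leukotriene synthesis, changed by −2.03 ± 0.17 (adjusted p = 5.55e-05). The conjugate exporters Abcc1 and Abcc5 changed by −0.57 ± 0.11 (adjusted p = 0.00317) and −0.78 ± 0.09 (adjusted p = 0.000312). Abcc1 lost its call in the 5 libraries with few epididymis reads (−0.48, adjusted p = 0.051).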

How the data were processed

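Per the labels' protocols, stranded TruSeq libraries of polyA RNA were read as single ends on a NextSeq550. The submitters' processing notes name Trimmomatic, TopHat2, featureCounts, limma and the build mm9. Their settings, the strand option and the gene filter have no statement there. What the authors deposited is a table of voom log2 CPM for 16505 genes, and the values themselves fit counts raised by 0.5 and totals raised by 1. Whole reads and totals were worked out from these values, and 100% came out whole within 0.01 read. One read was worth 0.0130 to 0.268 CPM, so low genes are less precise in shallow libraries.

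The groups were compared with limma 3.58.1 in R 4.3.3, with a variance trend and group as the only term, two-sided. The 13797 genes with a mean of at least 0 were tested, with Benjamini-Hochberg adjustment over all of them at 0.05. The members, lists and tests were chosen with earlier results of these data known. Values in every library are printed for called members with no overlap and a change of at least 1, for the peroxidases, dismutases and reductases, and for further genes that a paragraph turns on. Each list names at most 4 genes by smallest p plus Nfe2l2, Keap1, Cat, Gclc, Gclm, Gsr and Txn1. Outside this rule, Glrx, Glrx3, Nqo1 and Nfe2l1 were added after their values were seen, and other called genes of the lists are not named. No set test was run. Alternatives were another transform, filters, scalings, thinning, variance models, weights, a block, covariates and leaving out libraries. The scripts were tested on simulated reads. Sequences are from RefSeq and GENCODE tables of GRCm38, matched by symbol, and no position on mm9 is given. Plots were drawn with matplotlib 3.10.9.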

Additional observations from a re-analysis of the deposited data

Results flagged for a closer look

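In each group of 4 libraries the gap between an extreme library and its neighbour was set against the whole range, with Dixon's 95% value as the limit, which chance alone passes in about 1 group in 20. Of 122 groups, 5 passed. Gpx7 was lowest in knockout replicate 4, at 3.83 log2 CPM against 4.34 in the next library. Mgst2 was highest in WT replicate 2, at 3.21 against 3.04. Sesn1 was lowest in WT replicate 3, at 6.73 against 6.98. Lrp8 was lowest in WT replicate 1, at 1.36 against 3.03, and highest in knockout replicate 2, at 3.41 against 0.74, the library with the most epididymis reads.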

How the results depend on the processing

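Over 23 alternatives, of which the pair of covariates was added after seeing the data, the number of higher members ran from 16 to 24 (21 as reported) and of lower members from 2 to 4 (2 as reported). The lower count was 4 with median centring, 4 with voom on whole reads and median-ratio size factors, and 4 with both covariates, where Prdx4 and Gpx1 joined Prdx1 and Txnrd1. With 1 library left out, 16 to 23 members were higher and 2 to 3 lower, and the pathway list genes numbered 6 to 16 higher (12 as reported) and 15 to 19 lower (18). All tested genes then numbered 2143 to 4075 higher (3137 as reported) and 1860 to 2297 lower (2216). Over the 23 alternatives all genes ran from 2113 to 4428 higher and from 1711 to 2964 lower. Gpx7, which did not pass, changed sign in the 5 libraries with few epididymis reads (0.0796) and ran from −0.166 without WT replicate 1 to 0.0426 without knockout replicate 4. Gpx8, which did not pass either, was at −0.0210 with median centring, −0.0470 with voom, −0.20 with the ribosomal RNA class, −0.0408 with the epididymis level, −0.18 with both covariates, and ran from −0.0262 without WT replicate 1 to 0.286 without knockout replicate 1. Keap1 was at −0.00687 with both covariates. The cause was not tested. Replicate numbers are shared between the groups, but nothing says they pair animals, and same-number libraries deviated together with correlations from −0.36 to 0.79. With the replicate number as a block, 22 members were higher and 2 lower, and of all genes 3232 were higher and 2136 lower. Gpx3 then lost its call (adjusted p = 0.054), Gstm6 and Gstt3 passed (adjusted p = 0.0111 and 0.00212), and 33 of 36 members kept their side. Higher genes made up fewer of all calls with other scalings (2444 higher and 2825 lower with centring). Depth limits Gsto2, Gstt4, Prdx6b and Gstp2, which rest on few WT reads.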
